A study of Homo sapiens with 10 samples.

Results

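Mitochondrial ribosomal proteins were defined as the genes whose symbol starts with MRPL or MRPS followed by a digit, and 74 of the 18569 probe sets met this rule, each for a different gene. By symbol, 47 of them encode large subunit proteins and 27 encode small subunit proteins. Human MRPL45, MRPL53 and MRPS6 were not analysed here. RNA came from A375, an established human melanoma cell line, and was hybridised to Clariom S arrays, 1 array per sample. The control group was 5 arrays of cells plated without doxycycline, and the treated group was 5 arrays of cells plated with doxycycline at 2 µg/ml, all collected on day 4. The title of the series concerns Omomyc, a dominant-negative form of the MYC dimerisation domain, and its effect on growth of this line. The labels describe neither the construct nor its promoter, nor whether the cells are a clone, and no array of doxycycline-treated cells without Omomyc was analysed here, so effects of doxycycline itself cannot be told apart from those of the transgene.

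Mitochondria carry their own ribosome, which translates the few proteins encoded by mitochondrial DNA, all of them core subunits of the respiratory chain and ATP synthase. Its RNAs are mitochondrial, but all its proteins are encoded in the nucleus, made in the cytosol and imported. The small subunit holds the messenger RNA and decodes it, and the large subunit forms the peptide bond and feeds the new chain into the inner membrane. Some of the proteins have counterparts in bacteria, and the others are found only in mitochondrial ribosomes. Tetracyclines, the class of doxycycline, bind bacterial ribosomes and can also slow mitochondrial translation.

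Array medians were 5.02 to 5.10 log2 units, and doxycycline array 1 had the highest first quartile, 2.94 against 2.80 to 2.87 on the other 9. Of the melanocyte lineage genes, SOX10, S100B and MITF had control means of 8.71, 7.58 and 7.12 log2 units, whereas MLANA, PMEL, TYR and TYRP1 had 2.31, 2.49, 1.83 and 2.21. Of these 7 genes MITF, S100B and TYR were called higher with doxycycline. The sum of the log2 signals of all 7 was 32.05 to 32.55 in control and 33.63 to 34.59 with doxycycline. The 5 keratinocyte markers had control means of at most 2.76 and 1 of them, KRT5, was called higher with doxycycline. Among 5 fibroblast markers 4 were called higher, with summed log2 signals of 20.76 to 22.03 in control and 24.59 to 25.27 with doxycycline. Of 4 leukocyte markers 1 was called higher, LYZ, with sums of 19.81 to 21.24 and 21.49 to 23.08, and LYZ, CD68, PTPRC and CD3E had control means of 6.87, 8.84, 2.15 and 2.75. The part of these markers in the results that follow was not tested. In RNA of whole cultures, less RNA in every cell and fewer cells with that RNA cannot be told apart.

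With doxycycline 35 of the 74 genes fell (47.3%), 4 rose and 35 did not pass the test, which was limma's moderated test at an adjusted p under 0.05 over all probe sets. Over the whole array 38.1% of probe sets were called, 17.2% lower and 20.9% higher. The mean signals of the 74 genes ran from 4.81 to 10.86 log2 units, and 70 of them lay above the median of all probe sets. Among probe sets above that median 25.2% were called lower and 29% higher in the same fit. The median log2 fold change of doxycycline over control was -0.22 for the 74 genes and 0.04 for all probe sets. Groups did not overlap in 29 of the 74 genes, against 28.6% of all probe sets, and 27 of these 29 were lower with doxycycline. Of all 18569 probe sets 2495 were without overlap and called lower, and 2701 were without overlap and called higher. Most changes were under 0.5 log2 units: 19 of the 74 genes fell by at least 0.5, and of these MRPS34 and MRPS26 fell by at least 1. Falls of at least 0.5 were found in 1896 of all 18569 probe sets and in 1361 of the 9285 above the median signal. Called falls of at least 1 were found in 750 and 546 of them.

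**Figure D1:**
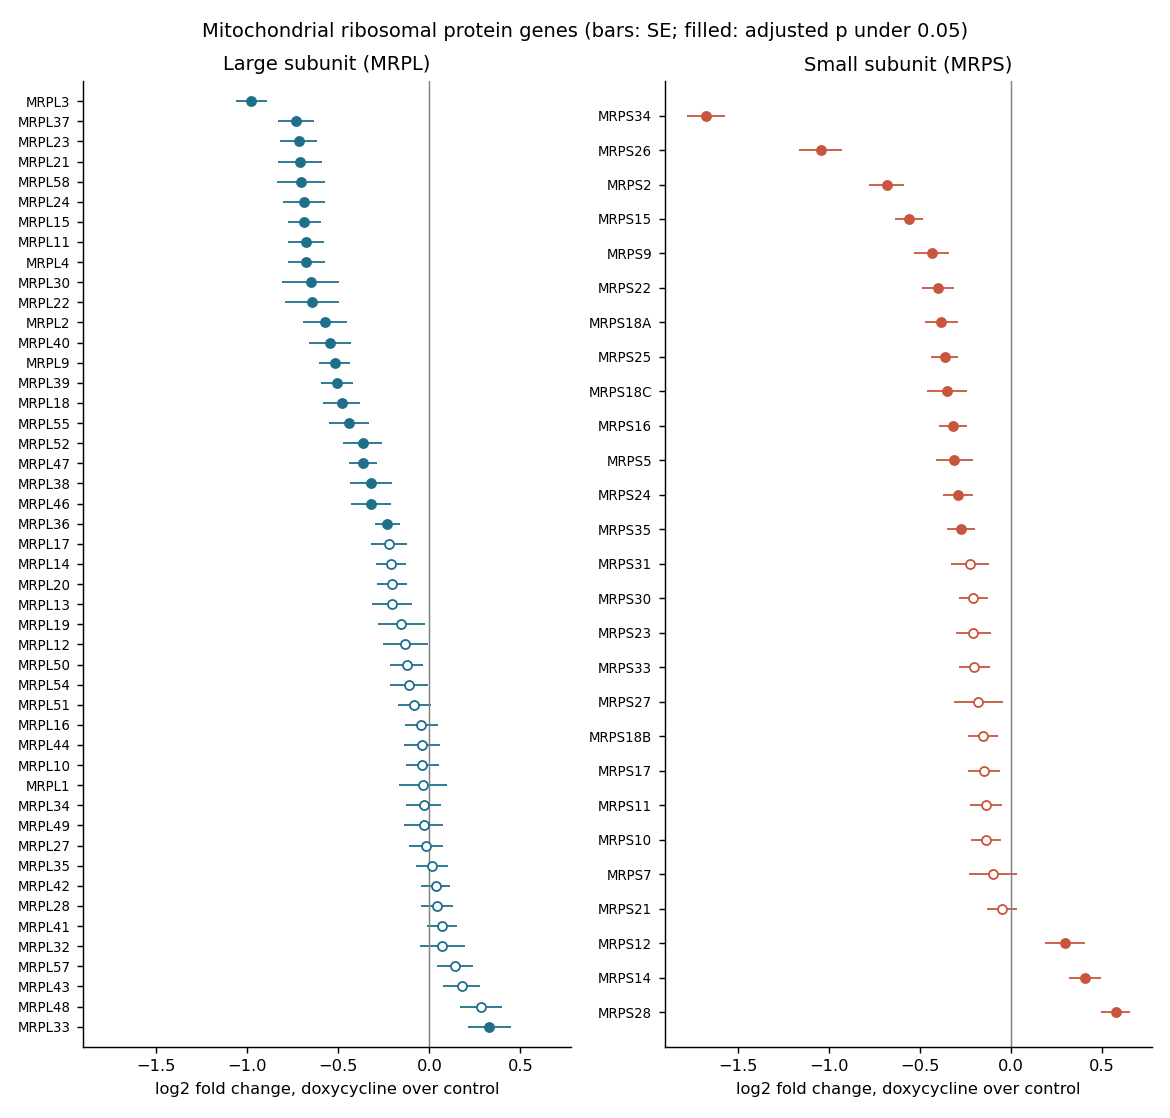
Log2 fold change of doxycycline over control (x axis) for the 47 large subunit genes (left) and the 27 small subunit genes (right), with bars for the standard error and filled points for genes called at an adjusted p under 0.05. MRPS34 lies apart at -1.68, and MRPS28, at 0.57, is the highest of the 74.

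The large and the small subunit were alike in how many genes fell and in their medians. In the large subunit 22 of 47 genes fell (46.8%) and 1 rose, with a median log2 fold change of -0.21. In the small subunit 13 of 27 fell (48.1%) and 3 rose, with a median of -0.22. Falls of at least 0.5 log2 units were found in 15 of 47 large subunit genes and in 4 of 27 small subunit genes. Among probe sets above the median signal 1361 of 9285 fell by as much. Both falls of at least 1 were in the small subunit. The interquartile range ran from -0.56 to -0.03 in the large subunit and from -0.37 to -0.14 in the small subunit. No test was made of the difference between the subunits. Structures place MRPS18A and MRPS30 in the large subunit despite their symbols, and with them moved the counts were 23 lower and 1 higher of 49, and 12 lower and 3 higher of 25, with the same medians.

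**Figure D2:**
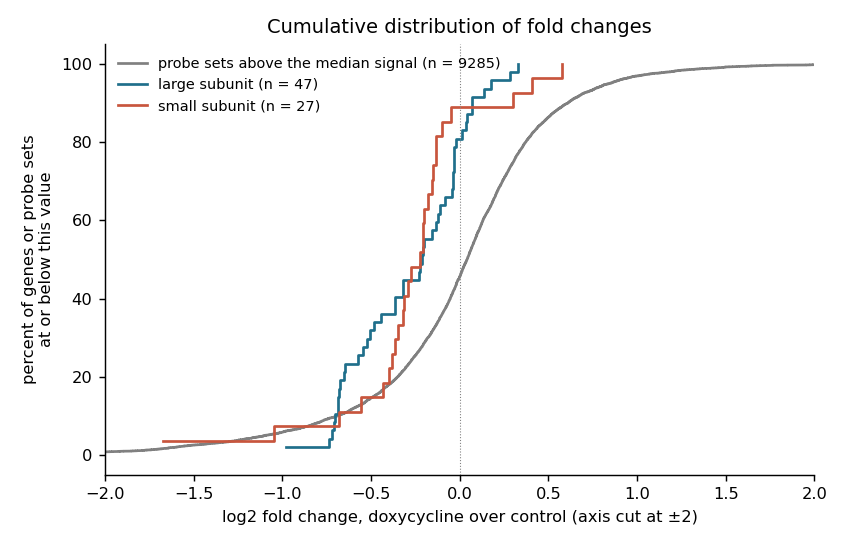
Cumulative share of genes or probe sets (y axis, percent) at or below each log2 fold change (x axis), for the 47 large subunit genes, the 27 small subunit genes and the 9285 probe sets above the median signal. Both subunit curves lie above the grey curve from their medians upward, with medians of -0.21 and -0.22 against 0.04.

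Array by array, the shift of the subunits was seen in every doxycycline sample. Each gene was expressed as its deviation from its control mean, and the median was taken on each array. The large subunit medians were 0.05, -0.02, 0.09, -0.04 and -0.05 log2 units on control arrays 1 to 5, and -0.12, -0.23, -0.28, -0.33 and -0.25 on doxycycline arrays 1 to 5. The small subunit medians were 0.06, -0.03, 0.06, -0.06 and -0.05 on the control arrays and -0.21, -0.19, -0.24, -0.24 and -0.30 on the doxycycline arrays. The groups did not overlap for either subunit. Over all probe sets the medians were -0.02 to 0.02 in control and 0.02 to 0.08 with doxycycline. The large minus small difference lay between -0.02 and 0.03 in control and between -0.09 and 0.09 with doxycycline, on both sides of 0 in both groups. Doxycycline array 1 was the highest of its group for 35 of the 74 genes (47.3%), against 33.4% of all probe sets, and control array 3 was the lowest of its group for none, against 14.2% of all probe sets.

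**Figure D3:**
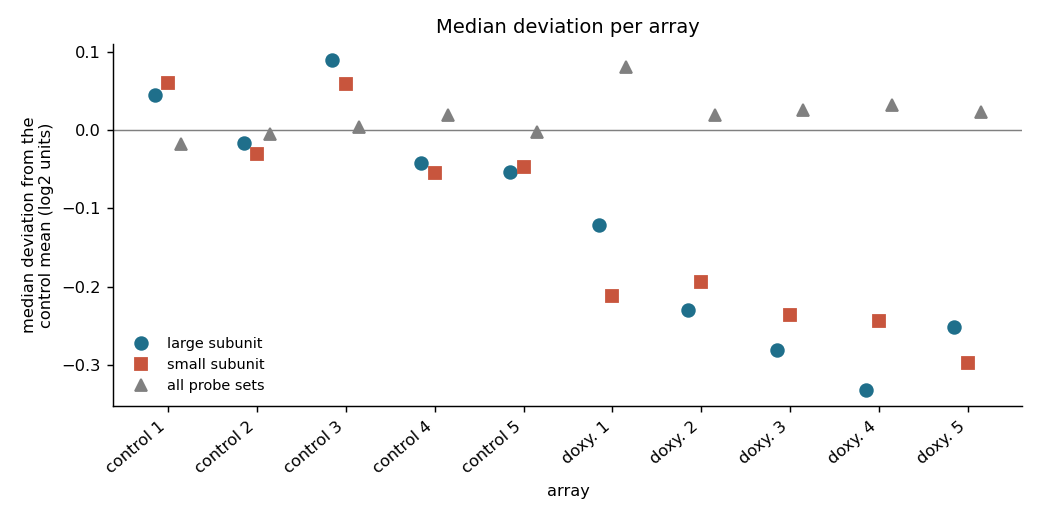
Median deviation from the control mean (y axis, log2 units) of the large subunit genes, the small subunit genes and all 18569 probe sets on each of the 10 arrays (x axis). Both subunits lie at or below -0.12 on the doxycycline arrays and at or above -0.06 on the control arrays.

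In the small subunit the largest falls were in MRPS34 and MRPS26, proteins without a bacterial counterpart. MRPS34, which is needed for a stable small subunit and is mutated in a form of Leigh syndrome, had log2 signals of 8.06, 7.93, 8.13, 7.90 and 7.76 on control arrays 1 to 5 and 6.49, 6.33, 6.23, 5.98 and 6.36 on doxycycline arrays 1 to 5. The lowest control array was more than 1 log2 unit above the highest doxycycline array. The mean fell from 7.95 ± 0.15 to 6.28 ± 0.19 (SD, n = 5), a 3.19-fold decrease (log2 fold change -1.68 ± 0.10 SE, adjusted p = 8.34e-09). The RefSeq gene table places the start of MRPS34 inside EME2, a gene for a subunit of a DNA structure-specific nuclease, whose own log2 fold change was 0.00 ± 0.11 (adjusted p = 0.981). MRPS26 read 6.17, 6.08, 6.06, 5.93 and 6.03 in control and 5.19, 4.76, 5.03, 4.71 and 5.36 with doxycycline. Its groups were also separate, with a 2.06-fold decrease (-1.05 ± 0.12, adjusted p = 4.58e-06) and more spread among the doxycycline arrays.

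Next came proteins of the bacterial type. MRPS2 read 9.68, 9.62, 9.69, 9.77 and 9.52 in control and 9.26, 9.05, 8.81, 8.88 and 8.86 with doxycycline (-0.68 ± 0.10, adjusted p = 4.24e-05). MRPS15, which binds the ribosomal RNA of the small subunit, read 7.74, 7.60, 7.70, 7.67 and 7.60 in control and 7.17, 7.05, 7.23, 7.08 and 6.98 with doxycycline (-0.56 ± 0.08, adjusted p = 3.69e-05). MRPS9 read 6.29, 6.48, 6.41, 6.35 and 6.49 against 6.21, 5.74, 6.09, 5.97 and 5.83 (-0.43 ± 0.10, adjusted p = 0.00208). For these 3 genes the groups did not overlap, although the highest doxycycline array of MRPS9 lay just under its lowest control array. The other called falls, apart from MRPS18A and MRPS18C, were in MRPS22, mutated in a fatal infantile mitochondrial disease (-0.40 ± 0.09), MRPS25 (-0.36 ± 0.07), MRPS16 (-0.32 ± 0.08), MRPS5 (-0.31 ± 0.10), MRPS24 (-0.29 ± 0.08) and MRPS35 (-0.27 ± 0.08). The call of MRPS5 (adjusted p = 0.0260) was lost in 5 of the 10 fits that left out 1 array, those without control arrays 1 and 3 and doxycycline arrays 2, 3 and 5 (adjusted p = 0.00438 to 0.0717 over the 10), after quantile normalization again, and with the replicate number as a block (adjusted p = 0.0510). MRPS5 and MRPS24 are counterparts of the bacterial proteins at the messenger RNA entry.

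Against this direction, 3 small subunit genes of the bacterial type rose. MRPS28 read 6.06, 5.93, 5.97, 6.11 and 6.10 in control and 6.65, 6.55, 6.72, 6.45 and 6.67 with doxycycline. It was higher on every doxycycline array than on any control array (0.57 ± 0.08, adjusted p = 4.15e-05). MRPS14 read 8.27, 7.99, 8.23, 7.99 and 8.11 in control and 8.59, 8.48, 8.37, 8.65 and 8.54 with doxycycline, again without overlap (0.41 ± 0.09, adjusted p = 0.00163). MRPS12, the counterpart of the bacterial protein that monitors decoding, rose by less (0.30 ± 0.11, adjusted p = 0.0420), its groups overlapped, and the call was lost in 6 of the 10 fits that left out 1 array, those without control arrays 1, 2, 3 and 5 and doxycycline arrays 1 and 3 (adjusted p = 0.0304 to 0.108 over the 10).

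Of the 3 human paralogues of the bacterial S18 protein 2 were called lower. MRPS18A is a large subunit protein by structure, MRPS18B sits elsewhere in the small subunit, and MRPS18C holds the bacterial position. MRPS18A read 8.65, 8.72, 8.76, 8.69 and 8.48 in control and 8.36, 8.46, 8.22, 8.09 and 8.26 with doxycycline, without overlap (-0.38 ± 0.09, adjusted p = 0.00304). MRPS18C read 5.55, 5.59, 5.84, 5.61 and 5.59 in control and 4.96, 5.60, 5.21, 5.39 and 5.26 with doxycycline (-0.35 ± 0.11, adjusted p = 0.0211). Doxycycline array 2 lay among its controls, and the call was lost without control array 3 (adjusted p = 0.0621, and 0.00467 to 0.0621 over the 16 alternative fits). MRPS18B read 8.49, 8.35, 8.44, 8.45 and 8.31 against 8.42, 8.30, 8.25, 8.15 and 8.12, and did not pass (-0.16 ± 0.08, adjusted p = 0.159). Whether the 3 fold changes differ from each other was not tested.

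**Figure D4:**
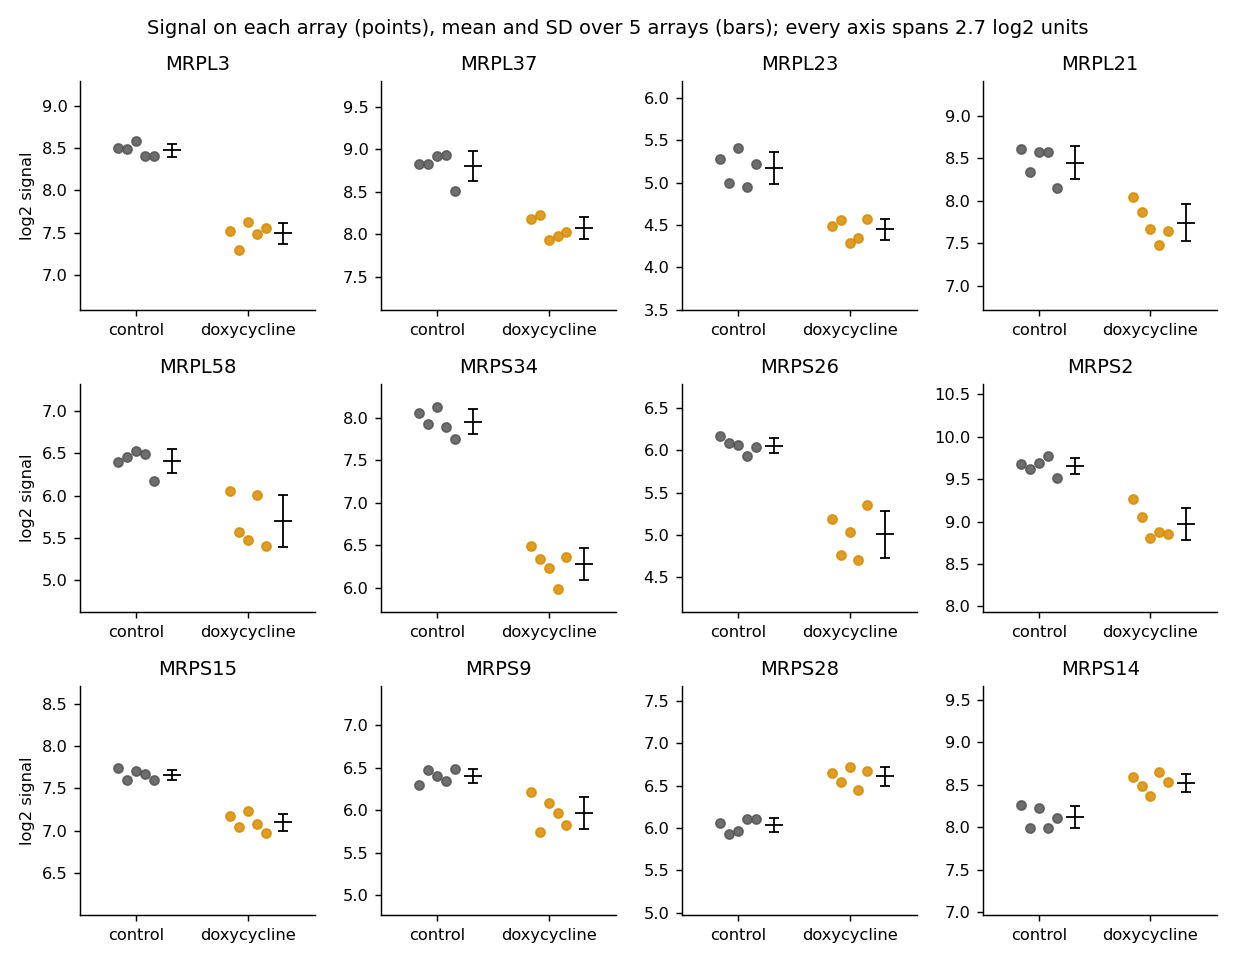
Log2 signal (y axis) of 12 genes on the 5 control and 5 doxycycline arrays (points, replicates 1 to 5 from left to right), with the mean and SD of each group beside them. In all 12 the groups are separate, with MRPS28 and MRPS14 higher and the other 10 lower with doxycycline.

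In the large subunit MRPL3 fell most. MRPL3, which lies near the site of peptide bond formation and is mutated in a mitochondrial cardiomyopathy, read 8.50, 8.49, 8.58, 8.40 and 8.41 in control and 7.52, 7.30, 7.63, 7.48 and 7.56 with doxycycline. The groups were far apart relative to their spread, and the mean fell from 8.48 ± 0.08 to 7.50 ± 0.12 (SD, n = 5), a 1.97-fold decrease (-0.98 ± 0.08, adjusted p = 2.22e-07). MRPL37, found only in mitochondrial ribosomes, read 8.83, 8.83, 8.92, 8.94 and 8.51 in control and 8.18, 8.22, 7.93, 7.98 and 8.03 with doxycycline (-0.73 ± 0.10, adjusted p = 2.54e-05). MRPL21 read 8.61, 8.35, 8.57, 8.58 and 8.15 in control and 8.05, 7.86, 7.67, 7.48 and 7.64 with doxycycline (-0.71 ± 0.12, adjusted p = 2.10e-04). Control array 5 was the lowest control for both MRPL37 and MRPL21, and it still lay above every doxycycline array.

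The exit of the peptide tunnel is ringed by proteins that include MRPL22, MRPL23, MRPL24 and MRPL47. The genes named here for the exit, the central protuberance and the stalk were picked after values were known and are not all the proteins of those sites, so no share is read from them. MRPL23 read 5.28, 5.00, 5.40, 4.95 and 5.22 in control and 4.49, 4.56, 4.29, 4.35 and 4.57 with doxycycline (-0.72 ± 0.10, adjusted p = 4.22e-05), with no overlap. MRPL24 (-0.69 ± 0.12), MRPL22 (-0.64 ± 0.15) and MRPL47 (-0.36 ± 0.08) fell too, while MRPL17, also placed near the exit, did not pass (-0.22 ± 0.10, adjusted p = 0.0889). The central protuberance contacts the small subunit and transfer RNAs. Of its proteins MRPL58, a peptidyl-tRNA hydrolase built into the ribosome that can free stalled chains, read 6.40, 6.46, 6.52, 6.49 and 6.17 in control and 6.05, 5.57, 5.48, 6.01 and 5.40 with doxycycline (-0.71 ± 0.13, adjusted p = 5.28e-04). Doxycycline arrays 1 and 4 were nearer to the controls than the other 3 were. MRPL40 (-0.55 ± 0.12), MRPL38 (-0.32 ± 0.11) and MRPL46 (-0.32 ± 0.11) also fell, and MRPL48 (0.28 ± 0.11, adjusted p = 0.0638) and MRPL27 (-0.02 ± 0.09, adjusted p = 0.895) did not pass. The calls of MRPL38 (adjusted p = 0.0376) and MRPL46 (adjusted p = 0.0335) were each lost in 7 of the 10 fits that left out 1 array and with arrays centred on their medians, and that of MRPL38 also after quantile normalization again. The leave-one-out fits that kept them were without control array 2, doxycycline array 1 and, for MRPL38, control array 4 or, for MRPL46, control array 5, and adjusted p ranged from 0.00636 to 0.0972 and from 0.00812 to 0.0867 over the 10 fits. At the stalk, where translation factors bind, MRPL11 fell (-0.68 ± 0.10), while MRPL10 (-0.04 ± 0.09) and MRPL12 (-0.13 ± 0.12), which also binds the mitochondrial RNA polymerase, did not pass.

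Other large subunit proteins fell as well. Those of the bacterial type were MRPL15 (-0.69 ± 0.09), MRPL4 (-0.68 ± 0.10), MRPL30 (-0.65 ± 0.16), MRPL2, next to the catalytic centre (-0.58 ± 0.12), MRPL9 (-0.52 ± 0.08), MRPL18 (-0.48 ± 0.10), MRPL55 (-0.44 ± 0.11) and MRPL36 (-0.23 ± 0.07). The call of MRPL36 (adjusted p = 0.0178) was lost without control array 3 (adjusted p = 0.0515) and with the replicate number as a block (adjusted p = 0.0572), and adjusted p was 0.00595 to 0.0572 over the 16 alternative fits. The mitochondria-specific ones were MRPL39 (-0.51 ± 0.09) and MRPL52 (-0.37 ± 0.11). The single large subunit gene that rose was MRPL33, with log2 signals of 4.68 ± 0.17 in control and 5.01 ± 0.24 with doxycycline (SD, n = 5). Its change was 0.33 ± 0.12 (adjusted p = 0.0380), its groups overlapped, and the call was lost in 8 of the 10 fits that left out 1 array, all but those without control array 4 or doxycycline array 4 (adjusted p = 0.00413 to 0.0983 over the 10), and with the replicate number as a block (adjusted p = 0.0781).

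The 35 genes that did not pass had log2 fold changes of -0.22 to 0.28, and 27 of them were below 0. In the small subunit all 11 such values were below 0, from -0.22 for MRPS31 to -0.05 for MRPS21. In the large subunit 16 of 24 were below 0, from -0.22 for MRPL17 to 0.28 for MRPL48. Their standard errors were 0.08 to 0.14, and 8 of the 35 had an unadjusted p under 0.05. Missing the threshold does not show that these genes did not change.

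Grouped by ancestry, bacterial-type and mitochondria-specific proteins gave similar counts. Of 44 bacterial-type genes 21 fell (47.7%) and 4 rose, with a median of -0.22. Of 30 genes listed as mitochondria-specific 14 fell (46.7%) and 16 did not pass, with a median of -0.22. The list counted MRPL47, MRPS18A and MRPS18B as mitochondria-specific. However, MRPL47 has a bacterial counterpart, and MRPS18A and MRPS18B are paralogues of the bacterial S18 protein. MRPL47 and MRPS18A are among the 14 that fell, and MRPS18B is among the 16 that did not pass. All 4 genes that rose (MRPS28, MRPS14, MRPS12 and MRPL33) were of the bacterial type, and the 2 largest falls (MRPS34 and MRPS26) were mitochondria-specific. The difference between the 2 kinds was not tested.

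The starts of these genes were set beside their changes, since MYC and MAX bind the E-box CACGTG. RefSeq promoters of build GRCh38.p14 were at hand for 66 of the 74 genes, and the 250 bases before each start were searched on both strands for 4 short words, counting a gene if any of its listed starts had the word. The search took in all 250 bases, also where they run into a neighbouring gene. CACGTG was found in 7 of 66 genes (10.6%), against 9.70% of 14129 genes on the array, and 5 of the 7 fell: MRPL22, MRPL36, MRPL37, MRPS2 and MRPS18C. In MRPL37 and MRPS18C the word is not in the stretch between the start and the neighbour, CYB5RL or HELQ. The other 2, MRPL49 (-0.03 ± 0.11) and MRPS33 (-0.20 ± 0.08), did not pass. The word was thus present in 5 of 31 genes that fell (16.1%) and in 2 of the other 35 (5.71%). It was present in 14.3% of all genes on the array that fell. Of the 5, MRPL36 and MRPS18C lost their calls without control array 3, and the shares were not tested against each other. The ETS family word CCGGAAG was found in 24 of 66 genes (36.4%) against 14.1% of all genes, in 12 of the 31 that fell and in 12 of the other 35. Among these 24 are MRPS34 and MRPL3, whose starts lie inside another RefSeq gene. The YY1 word AAGATGGC was found in 5 genes (7.58% against 1.78% of all genes) and the NRF1 word GCGCATGC in 6 (9.09% against 4.35%), and none of the 4 words contains another. Of all genes with a promoter 17.9% were called lower, against 26.4% of those with CACGTG, 23.7% with the ETS word, 18.7% with the YY1 word and 29.3% with the NRF1 word. A match is a description of letters and not of binding.

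The 5 windows that follow show genes that fell with and without an E-box and 1 gene that rose. They are printed from 5′ to 3′ on the gene's strand and end at the base before the start, with matches to the 4 words in capitals.
MRPL22: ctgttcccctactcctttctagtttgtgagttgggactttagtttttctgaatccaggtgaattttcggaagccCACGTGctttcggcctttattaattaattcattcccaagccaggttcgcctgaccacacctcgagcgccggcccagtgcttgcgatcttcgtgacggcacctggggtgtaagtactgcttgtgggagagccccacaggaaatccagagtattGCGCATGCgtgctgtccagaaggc
MRPL36: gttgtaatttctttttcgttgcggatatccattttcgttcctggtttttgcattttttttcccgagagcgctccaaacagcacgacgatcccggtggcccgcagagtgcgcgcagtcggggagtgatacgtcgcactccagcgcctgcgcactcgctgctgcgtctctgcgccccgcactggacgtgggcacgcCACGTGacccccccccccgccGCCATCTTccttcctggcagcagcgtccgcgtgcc
MRPS2: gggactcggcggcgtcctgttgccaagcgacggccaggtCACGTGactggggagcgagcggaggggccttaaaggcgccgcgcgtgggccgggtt
MRPS26: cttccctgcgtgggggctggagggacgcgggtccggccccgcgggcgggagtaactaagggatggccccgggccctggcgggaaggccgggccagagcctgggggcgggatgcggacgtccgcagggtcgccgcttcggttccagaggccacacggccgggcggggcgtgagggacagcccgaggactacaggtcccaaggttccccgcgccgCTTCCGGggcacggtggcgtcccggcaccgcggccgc
MRPS14: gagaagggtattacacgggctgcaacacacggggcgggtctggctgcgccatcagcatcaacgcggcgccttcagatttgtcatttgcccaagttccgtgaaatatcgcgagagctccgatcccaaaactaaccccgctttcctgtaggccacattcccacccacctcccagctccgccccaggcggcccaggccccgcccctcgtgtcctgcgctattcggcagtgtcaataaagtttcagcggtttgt

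The first 3 windows are genes that fell and have the E-box. MRPL22, at chr5:154940823-154941072 on the plus strand, has CACGTG starting 176 bases before the start and the NRF1 word 24 bases before it. MRPL36, at chr5:1799838-1800087 on the minus strand, has CACGTG at 56 bases and the YY1 word, on the opposite strand, at 35 bases. MRPS2, at chr9:135499870-135499964 on the plus strand, has CACGTG at 56 bases, and the window is 95 bases long because PIERCE1 begins there on the other strand. A second listed start of MRPS2 has none of the 4 words. MRPS26, at chr20:3045802-3046051 on the plus strand, shows a strong fall without an E-box, with the ETS word on the opposite strand at 37 bases. MRPS14, at chr1:175023426-175023675 on the minus strand, rose and has none of the 4 words.

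Some of these genes share their start region with a neighbour on the other strand. A divergent neighbour measured on the array, starting up to 1000 bases upstream or overlapping by up to 100 bases, was found for 18 of 66 genes (27.3%), against 12% of all 14129 genes. The 18 genes form 17 pairs, because MRPL46 and MRPS11 face each other. Of 6 such genes that fell, 1 had a neighbour that fell as well, 1 had a neighbour that rose and 4 had a neighbour that did not pass. Of all genes with a promoter 17.9% were called lower. MRPL30 fell with MITD1 (-0.23 ± 0.07, adjusted p = 0.0219), a gene of cell division. MRPS18C lay opposite HELQ, a DNA repair helicase, which rose (0.43 ± 0.10, adjusted p = 0.00298). MRPL37 and MRPS2 fell by 0.73 and 0.68, while CYB5RL (-0.03 ± 0.11) and PIERCE1 (-0.05 ± 0.08) did not pass, at distances of 137 and 96 bases.

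Of 11 genes that did not pass and had a neighbour, 5 lay opposite a gene that fell, beside the 17.9% of all genes called lower. Among these 5 were MRPS11 opposite MRPL46 and MRPL51 opposite NCAPD2. MRPL57 (0.14 ± 0.10) starts 106 bases from SKA3, a kinetochore protein gene, which fell (-1.22 ± 0.12, adjusted p = 1.28e-06). MRPL27 (-0.02 ± 0.09) starts 45 bases from EME1, a nuclease subunit gene, which fell (-1.04 ± 0.10, adjusted p = 1.16e-06). MRPL49 (-0.03 ± 0.11) lies opposite FAU, which encodes a protein of the cytosolic ribosome and fell (-0.35 ± 0.12, adjusted p = 0.0311). MRPL14 (-0.21 ± 0.08) did not pass, while TMEM63B opposite it rose (0.59 ± 0.09, adjusted p = 6.14e-05). MRPS12 was the single case of a shared rise, with SARS2, the mitochondrial seryl-tRNA synthetase (0.34 ± 0.08, adjusted p = 0.00282). The differences within pairs were not tested.

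**Figure D5:**
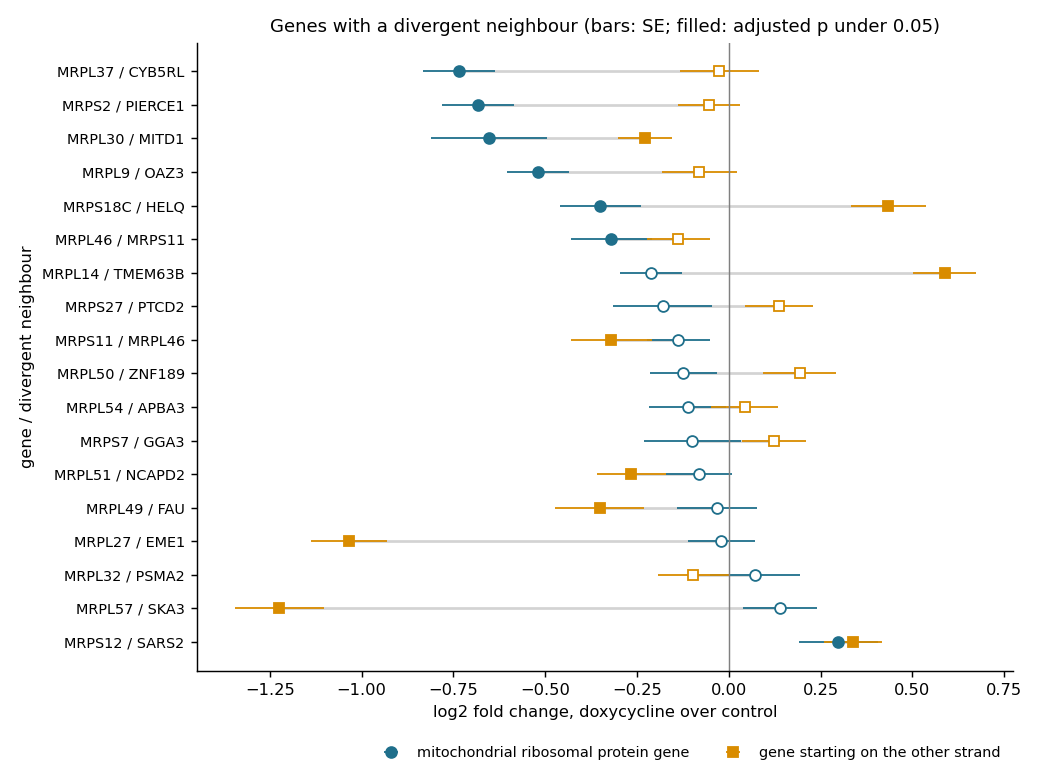
Log2 fold change of doxycycline over control (x axis) for the 18 mitochondrial ribosomal protein genes with a divergent neighbour (circles) and for that neighbour (squares), with bars for the standard error and filled symbols for genes called at an adjusted p under 0.05. The widest gaps are at MRPL57 with SKA3 and MRPL27 with EME1.

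Genes that serve the mitochondrial ribosome without an MRPL or MRPS symbol were counted from lists drawn up from general knowledge, and their counts stand beside 17.2% of all probe sets called lower. Of 4 further ribosomal proteins 2 fell, DAP3 (-0.29 ± 0.09) and GADD45GIP1 (-0.28 ± 0.10), and CHCHD1 and PTCD3 did not pass. Of 24 assembly factors 10 fell (41.7%) and 2 rose, with a median of -0.13. MTERF3 (-1.30 ± 0.10), C1QBP (-0.85 ± 0.08), the pseudouridine synthase RPUSD3 (-0.81 ± 0.09) and GTPBP6 (-0.63 ± 0.10) fell most, and RPUSD4 (0.43 ± 0.09) and RCC1L (0.22 ± 0.08) rose. Of 16 translation factors 6 fell (37.5%) and 10 did not pass, with a median of -0.17. The methionine aminopeptidase METAP1D (-1.96 ± 0.12), the RNA-binding SLIRP (-0.57 ± 0.12), the ribosome recycling factor MRRF (-0.48 ± 0.08) and the rescue factor MTRFR (-0.47 ± 0.10) led them.

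Mitochondrial aminoacyl-tRNA synthetases and their amidotransferase had 3 of 18 genes lower (16.7%), a share near that of all probe sets, 1 higher and a median of -0.08. CARS2 (-0.78 ± 0.10), MARS2 (-0.71 ± 0.14) and WARS2 (-0.30 ± 0.08) fell. For mitochondrial transcription, RNA processing and DNA upkeep, 5 of 18 genes fell (27.8%) and the median was -0.01. TOP1MT, the mitochondrial topoisomerase (-1.71 ± 0.08), SSBP1, which coats single-stranded mitochondrial DNA (-0.63 ± 0.10), and TFAM, which packages that DNA (-0.48 ± 0.11), were among them, while POLRMT, the mitochondrial RNA polymerase, did not pass (0.25 ± 0.12). By symbol, 34 of 72 nuclear-encoded oxidative phosphorylation genes fell (47.2%) with a median of -0.22, and 14 of 45 cytosolic ribosomal protein genes fell (31.1%) with a median of -0.15. No test compared these lists with the mitochondrial ribosomal proteins.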

How the data were processed

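The deposited values are log2 expression per probe set, which the authors made with RMA, per the submitters' processing notes. Its version, library file and filters are not given in the labels. RMA makes the distributions of the arrays nearly equal, so a global change in RNA content is invisible, and signal near background shrinks fold changes. Scanner files were not used here. The platform annotation gave 17511 of 18569 probe sets 1 symbol and left 1058 unnamed here. All 74 members matched the RefSeq gene table by gene ID with the same symbol.

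The 5 doxycycline arrays were tested against the 5 control arrays with limma 3.58.1 (lmFit, eBayes; R 4.3.3), two-sided, with group as the only term, and p values were adjusted by Benjamini-Hochberg over every probe set. Fold changes carry moderated standard errors and levels carry SDs. The members, lists and rules were chosen with earlier results of these data known. Values on each array were given for the 5 largest falls and up to 3 largest rises per subunit among called genes whose groups did not overlap, and for the MRPS18 paralogues. Of each other list up to 4 called genes were named by size of change. Other names (RPUSD4, RCC1L, POLRMT, divergent neighbours, sites on the ribosome) were picked with their values known. The arrays are labelled as biological replicas without naming separate cultures, so the spread behind the p values may be partly technical. In simulated doxycycline against control data over 18569 probe sets, limma recovered 6%, 58%, 96% and 100% of 50 probe sets changed by 0.25, 0.5, 1 and 2 log2 units. The simulation gave 138 calls against 7078 in the real data, so an adjusted p under 0.05 needed a smaller unadjusted p there. The recovered shares therefore do not give the sensitivity reached in the real data. The number of arrays limits the precision.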

Additional observations from a re-analysis of the deposited data

Results flagged for a closer look

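In 30 groups of 5 arrays (15 genes in control and with doxycycline), 2 arrays lay far from the other 4 of their group, by a gap above 0.71 of the group's range. MRPL37 read 8.51 on control array 5 (gap 0.748 of the range), and MRPS18C read 5.84 on control array 3 (0.818). Chance alone gives about 1 such array in 20 groups.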

How the results depend on the processing

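The results were recomputed in 16 other fits: 2 filters on dim probe sets, 2 scalings between arrays, eBayes with trend and robust settings, the replicate block and 10 fits without 1 array each. No gene changed direction with a call. Of the 35 genes called lower 30 were called in every fit that held them, and 5 (MRPL38, MRPL46, MRPL36, MRPS5 and MRPS18C) were lost in at least 1. The stricter filter, at the median signal, held 70 of the 74 genes. It left out MRPL23 and MRPL52, so their falls were not tested in that fit. Of the 4 called higher 2 (MRPS28 and MRPS14) were called in all 16. Of the 35 not called 7 were called in at least 1 fit. Leaving out 1 array gave 6378 to 7237 called probe sets, 32 to 39 called genes of the 74, 19 to 24 in the large subunit and 13 to 17 in the small subunit. The medians ranged from -0.24 to -0.20 in the large subunit and from -0.28 to -0.20 in the small subunit, with the lowest small subunit value, -0.275, without control array 2. Requiring a log2 fold change of at least 0.5 left 3754 called probe sets and 20 of the 74 genes, 15 in the large and 5 in the small subunit, by construction of that rule. With the replicate number as a block, 6476 probe sets and 36 of the 74 genes were called (21 large, 15 small), and MRPL36, MRPL33 and MRPS5 were lost. The numbers did not pair the samples: deviations of same-numbered arrays correlated at -0.44 to -0.01, and no doxycycline array matched its own number best. With arrays centred on their medians the median of the large subunit was -0.18 and that of the small subunit -0.19. Signal over background was not given, so how far dim probe sets compress fold changes is unknown.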

Other observations

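KGD4, once named MRPS36 and now assigned to the oxoglutarate dehydrogenase complex, fell outside the symbol rule. Its log2 signal was 6.54 ± 0.11 in control and 6.33 ± 0.12 with doxycycline (SD, n = 5), and it did not pass limma's test (-0.20 ± 0.09, adjusted p = 0.0787).

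The doxycycline arrays varied more among themselves than the control arrays did for 51 of the 74 genes (68.9%), against 59.6% of all probe sets. Control arrays 4 and 5 were the lowest of their group for 26 and 23 of the 74 genes (35.1% and 31.1%), against 20.7% and 22.6% of all probe sets.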
